A study of Mus musculus with 2 samples.

Results

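The 9 microRNA (miRNA) genes described here each lie inside a protein-coding gene and are transcribed from the same strand as that host. They are Mir139 in Pde2a, Mir378a in Ppargc1b, Mir744 in Map2k4, Mir151 in Ptk2, Mir140 in Wwp2, Mir342 in Evl, Mir149 in Gpc1, Mir708 in Tenm4 and Mir338 in Aatk. They are 9 of 2202 miRNA genes counted. They were selected on their host genes and with their read counts in these libraries already known, so their levels are given as a description and are not tested. The selection stated no count threshold. RNA came from adrenal glands of male B6CASTF1/J mice, the offspring of C57BL/6J and CAST/EiJ, aged 4 days. The series held 1 group of 2 libraries with no treatment in the labels, replicate 1 from the male numbered 3 and replicate 2 from the male numbered 4. Both samples carried 1 donor label, and nothing else in the labels says that the animals were bred or dissected separately, so p-values below measure only the difference between these 2 libraries.

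An intronic miRNA is cut as a hairpin from the transcript of its host by the nuclear enzyme Drosha, and the loop is then removed by Dicer. The host messenger RNA and the miRNA can in this way come from 1 promoter, although some intronic miRNAs also have promoters of their own. The mature strand guides Argonaute to messenger RNAs mainly through its seed, bases 2 to 8. The hosts have varied roles. Pde2a encodes a cGMP-stimulated phosphodiesterase that is known from the aldosterone-producing zone of the adrenal cortex. Ppargc1b encodes a coactivator of mitochondrial genes, and Map2k4 a kinase that activates JNK. Ptk2 encodes focal adhesion kinase, Evl an Ena/VASP protein of the actin cytoskeleton, and Gpc1 a cell-surface heparan sulfate proteoglycan. Wwp2 encodes a ubiquitin ligase, Tenm4 a teneurin of the cell surface, and Aatk a kinase found mostly in the nervous system. Host messenger RNA was not analysed here.

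Mature sequences are shown for 5 members to set the most abundant gene (Mir139) and an abundant companion (Mir744) beside the member that differed most between the libraries (Mir708), the most GC-rich one (Mir149) and the least abundant one (Mir338). They were taken from RefSeq on GRCm38.p6, run 5′ to 3′, and carry the seed in capitals.
miR-139-5p: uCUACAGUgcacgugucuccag
miR-139-3p: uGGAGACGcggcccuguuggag
miR-744-5p: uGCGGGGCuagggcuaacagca
miR-744-3p: cUGUUGCCacuaaccucaaccu
miR-149-5p: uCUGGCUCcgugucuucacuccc
miR-149-3p: gAGGGAGGgacgggggcggugc
miR-708-5p: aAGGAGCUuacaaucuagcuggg
miR-708-3p: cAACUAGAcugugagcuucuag
miR-28a-5p: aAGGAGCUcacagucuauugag
miR-338-5p: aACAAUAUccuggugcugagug
miR-338-3p: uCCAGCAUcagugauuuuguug

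Mir28a is not a member and is included because miR-28a-5p has the seed of miR-708-5p. The RefSeq table held 13 mature strands of 7 members, with 13 different seeds, so no seed was shared among these strands. Mir378a and Mir151 had no entry there, and of Mir140 only miR-140-3p was listed. Among all 1738 mature strands of the table, 3 of the 13 seeds recurred in another gene. The seed of miR-708-5p recurred in Mir28a, that of miR-140-3p in Mir497b, and that of miR-149-3p in Mir7016, Mir1943 and 2 loci with predicted names, Gm27775 and Gm27740. Of these, Mir28a was counted in quantity (11770 times in replicate 1, 3636 in replicate 2). Mir497b, Gm27775 and Gm27740 had no count in either library, Mir7016 had 0 and 2 counts, and Mir1943 had 2 and 1.

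The mature strands were 21 to 23 bases long. A U stood at the first base of 7 of the 13, against 41.3% of all mature strands in the table, and an A at the first base of 3. Their GC content ran from 40.9% for miR-338-3p to 81.8% for miR-149-3p, with a median of 52.2% that was also the median of the whole table. The deposited counts belong to whole hairpins, so reads of the 5p and 3p strands were added together. The hairpin of Mir139, shown because it held the most counts, is 68 bases long and carries its mature strands in capitals on either side of a loop of 14 bases.
Mir139 hairpin: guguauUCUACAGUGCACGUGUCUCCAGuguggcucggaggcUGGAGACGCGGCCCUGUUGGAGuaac
RNAfold gave this hairpin a minimum free energy of -35.6 kcal/mol. The 6 member hairpins in the table ranged from 66 to 100 bases and from 51.5 to 68.2% GC (median 56.1%, against 51.7% over all 1005 hairpins).

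The 9 genes lie on 7 chromosomes, at the following places on mm10 with positions counted from 1 (GENCODE M21). Mir139 lies at chromosome 7, 101475376 to 101475443, and Mir708 at chromosome 7, 96249424 to 96249532. Mir744 lies at chromosome 11, 65734733 to 65734832, and Mir338 at chromosome 11, 120014765 to 120014862. Mir151 lies at chromosome 15, 73254815 to 73254882, and Mir140 at chromosome 8, 107551244 to 107551313. Mir342 lies at chromosome 12, 108658620 to 108658718, and Mir149 at chromosome 1, 92850378 to 92850443. Mir378a lies at chromosome 18, 61397835 to 61397900. Mir139, Mir708, Mir140, Mir342 and Mir149 are on the plus strand, and Mir744, Mir338, Mir151 and Mir378a on the minus strand.

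In the longest coding transcript of each host, all 9 members fell in an intron. Mir378a, Mir149 and Mir708 sat in the first intron, Mir139 in intron 2 of 30, Mir744 in intron 3 of 10 and Mir342 in intron 3 of 13. Mir338 sat in intron 7 of 13, Mir140 in intron 16 of 23 and Mir151 in intron 23 of 33. The introns ranged from 1724 bases in Aatk to 144585 bases in Tenm4. Mir378a was the closest to its host's annotated start, at 2531 bases, or 2.47% of the length of Ppargc1b. Mir140 lay farthest along, at 94.0% of the length of Wwp2. Mir744 began 359 bases past the exon before it, the shortest such distance of the 9.

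The label of single hosts held only in part. The annotation rule asked for exactly 1 protein-coding host on the same strand, no overlap with any host exon, and no other miRNA gene in the host on either strand. Mir744, Mir151, Mir342 and Mir149 met it, and the other 5 did not. Mir139 also lies in intron 3 of Gm45837, a second coding gene that begins upstream of Pde2a and ends near the end of it. Mir140 overlaps an exon of 1 Wwp2 transcript, which is annotated as a retained intron. Tenm4 also holds Mir6394, 56134 bases beyond Mir708 on the same strand, with no count in either library. Gm25301 covers all 66 bases of Mir378a on the other strand and had no count, and Mir3065 overlaps 87 of the 98 bases of Mir338 on the other strand, with 6 and 2 counts. Host isoforms also differ: 7 of 9 coding transcripts of Ptk2 do not reach across Mir151, whereas all 4 of Pde2a span Mir139.

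**Figure D1:**
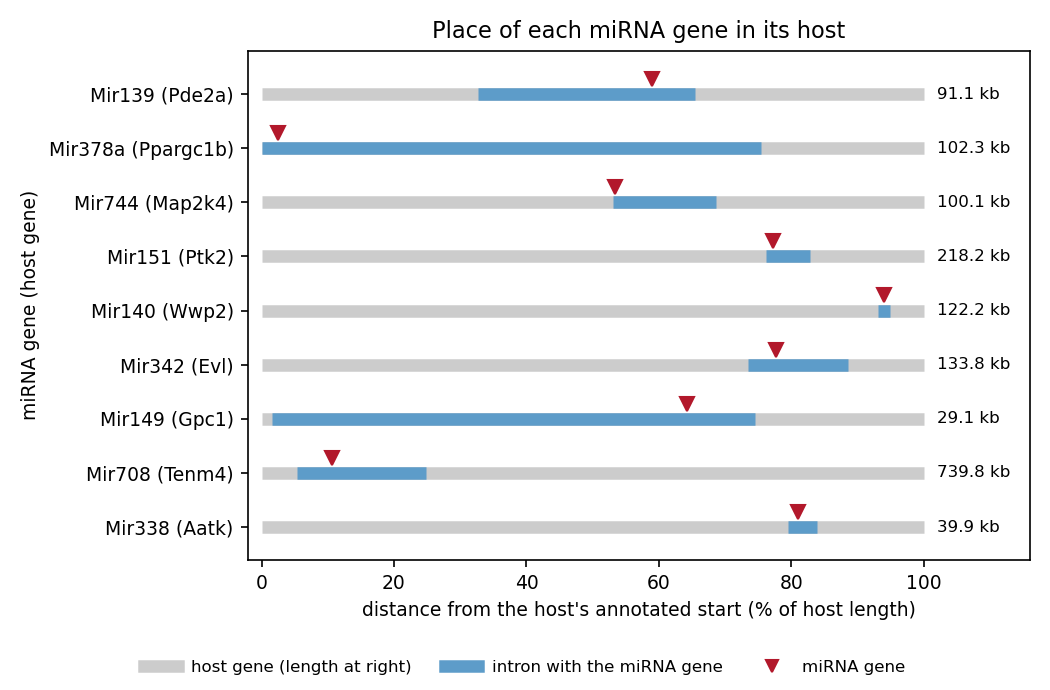
Place of each miRNA gene (triangle) along its host gene (grey bar, start at left), as a percentage of host length, with the intron that holds it in blue and the host length in kilobases at right. Mir378a lies at 2.47% and Mir140 at 94.0% of the host length, and the host of Mir708 is 739.8 kb long.

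Over all miRNA genes the sense strand gathered 3961630 counts in replicate 1 but 1686822 in replicate 2, so replicate 2 has the wider counting error. All levels below are CPM, each count divided by its library's total and scaled by 1000000. Counts were not divided by gene length, and how much of a mature strand each read covered was not examined. Among markers of the gland's cells, the neuroendocrine list (Mir375 and the miR-7 genes) had 4 of 4 genes detected. It summed to 36299 CPM in replicate 1 and 46670 CPM in replicate 2. Mir375 carried most of that sum, with 31129 and 42377 CPM. Mir7b (4570 and 3754 CPM) and Mir7-2 (137.6 and 67.0 CPM) were lower in replicate 2, and Mir7-1 was at 462 and 472 CPM. Of the 4 genes only Mir7-2 was called different by the rule given below, with a log2 ratio of -1.03 (replicate 2 to replicate 1). No list for cortical cells was used, so the cortex was not checked. In whole glands, fewer cells of a type and less RNA per cell cannot be told apart.

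Mir139, Mir378a and Mir744 were the most abundant members and ranked 18, 21 and 22 among all 2202 genes by mean level. Reads that align to several loci, 27.0% of reads in replicate 1 and 25.7% in replicate 2, were not counted for any gene. How many of them came from miRNA genes was not examined. Ranks and shares therefore hold for counted reads only, and miRNAs made from several loci may rank too low. Mir139 was counted 73685 times in replicate 1 and 29258 times in replicate 2. This gave 18599.7 and 17345 CPM, with a mean of 17972 ± 887 CPM (SD, n = 2). Mir378a, known for a role in energy metabolism, had 51421 and 22258 counts, or 12979.8 and 13195 CPM, with a mean of 13087.5 ± 152 CPM. Mir744 had 52043 and 16139 counts, or 13137 and 9568 CPM, with a mean of 11352 ± 2524 CPM. Mir139 was the highest of the 9 in both libraries, whereas the order of Mir378a and Mir744 changed between them.

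Mir151 and Mir140 took the middle of the range. Mir151 had 23000 and 8499 counts, or 5806 and 5038 CPM, with a mean of 5422 ± 543 CPM (SD, n = 2). Mir140, a miRNA best known from cartilage, had 7601 and 4582 counts, or 1919 and 2716 CPM, with a mean of 2317.5 ± 564 CPM. Mir151 was lower and Mir140 higher in replicate 2, and the order of these genes was the same in both libraries.

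Mir342, Mir149, Mir708 and Mir338 were the least abundant members. Mir342 had 5516 and 3753 counts, or 1392 and 2225 CPM, with a mean of 1809 ± 589 CPM (SD, n = 2). Mir149 had 4000 and 2282 counts, or 1009.7 and 1353 CPM, with a mean of 1181 ± 243 CPM. Both were higher in replicate 2. Mir708 had 3754 and 746 counts, or 948 and 442 CPM, with a mean of 695 ± 357 CPM, and its SD of 51.4% of the mean was the widest of the 9. Mir338, known for its part in the maturation of oligodendrocytes, had 698 and 512 counts, or 176 and 304 CPM, with a mean of 239.9 ± 90.0 CPM. Mir338 was the lowest member in both libraries, and its exact 95% intervals for counting error, 163 to 189.8 CPM and 278 to 331 CPM, did not overlap. The same held for every other member except Mir378a.

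**Figure D2:**
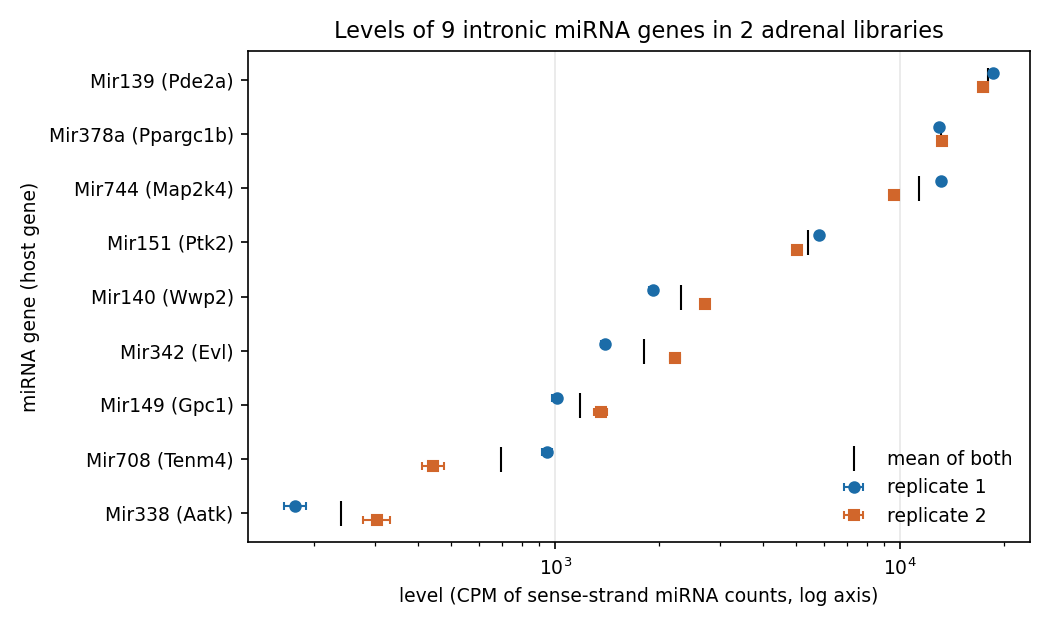
Level of each member in replicate 1 (circles) and replicate 2 (squares) in CPM on a log axis, with exact 95% intervals of counting error as bars and the mean of both as a tick. Levels run from Mir139 at 17972 CPM on average to Mir338 at 239.9 CPM, and Mir708 shows the widest gap between the libraries.

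Mean levels spanned a ratio of 74.9 between Mir139 and Mir338, which was 105.6 in replicate 1 and 57.1 in replicate 2. Of 8 pairs of neighbours in the order of mean levels, 6 had values that did not overlap over the 2 libraries. Mir378a and Mir744 overlapped, and their order changed between the libraries. Mir140 and Mir342 also overlapped when values were compared across libraries. Within each library Mir140 was the higher, at 1.38 times Mir342 in replicate 1 and 1.22 times in replicate 2. With 2 libraries, neither order can be taken beyond these samples. Some gaps were narrow: the lowest value of Mir342, 1392 CPM, stood beside a highest value of 1353 CPM for Mir149, and the lowest of Mir149, 1009.7 CPM, beside a highest of 948 CPM for Mir708.

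Added together, the 9 members made up 5.60% of all sense counts of replicate 1 (95% exact interval 5.57 to 5.62%) and 5.22% of those of replicate 2 (5.19 to 5.25%). The mean was 5.41% ± 0.267 (SD, n = 2). Mir139, Mir378a and Mir744 made up 79.9% of the members' counts in replicate 1 and 76.9% in replicate 2. Mir139 alone gave 33.2% of the members' counts in each library. The share of Mir744 went from 23.5 to 18.3%, and that of Mir708 from 1.69 to 0.847%.

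Between the libraries, Mir708 was the 1 member called different. It was 2.14-fold lower in replicate 2 (95% exact interval 1.98 to 2.32). A gene was called at a Benjamini-Hochberg adjusted p under 0.05 in a two-sided exact binomial test of its counts, if its log2 ratio (replicate 2 to replicate 1, on CPM + 0.5) was also beyond 1 in size. The test compares these libraries and covers counting error only. Across all 404 genes tested, 18.3% were called, 9.65% as higher and 8.66% as lower in replicate 2. Of the 9 members, 1 was called lower and 0 higher, a count too small to set apart from that background. The log2 ratio of Mir708 was -1.10 (adjusted p = 3.35e-93, exact binomial test), and its counting interval, -1.21 to -0.99, reached across the size threshold.

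The other 8 members differed by less than the size threshold. Mir338 had a log2 ratio of 0.78, Mir342 of 0.68, Mir140 of 0.50 and Mir149 of 0.42, all toward replicate 2. Mir744 had -0.46, Mir151 -0.20 and Mir139 -0.10, toward replicate 1. Mir378a, at 0.024, had an adjusted p of 0.0637 in the exact binomial test and the smallest difference of the 9. For the other 8 members, Mir708 included, the adjusted p was under 0.05, as for 251 of the 404 genes, since at these depths small ratios exceed counting error. The 4 most abundant members had ratios of at most 0.46 in size, and the other 5 had sizes from 0.42 to 1.10.

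The median log2 ratio of the members was 0.024 and that of all tested genes -0.054. The median size of the ratio, whatever its sign, was 0.46 for the members and 0.50 for all tested genes. With TMM scaling (trimmed mean of M-values, which corrects for a few dominant genes), the median log2 ratio of all tested genes moved by -0.107. Mir378a then went to -0.083, so that 4 members lay above 0 and 5 below, in place of 5 and 4, and Mir708 went to -1.21.

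**Figure D3:**
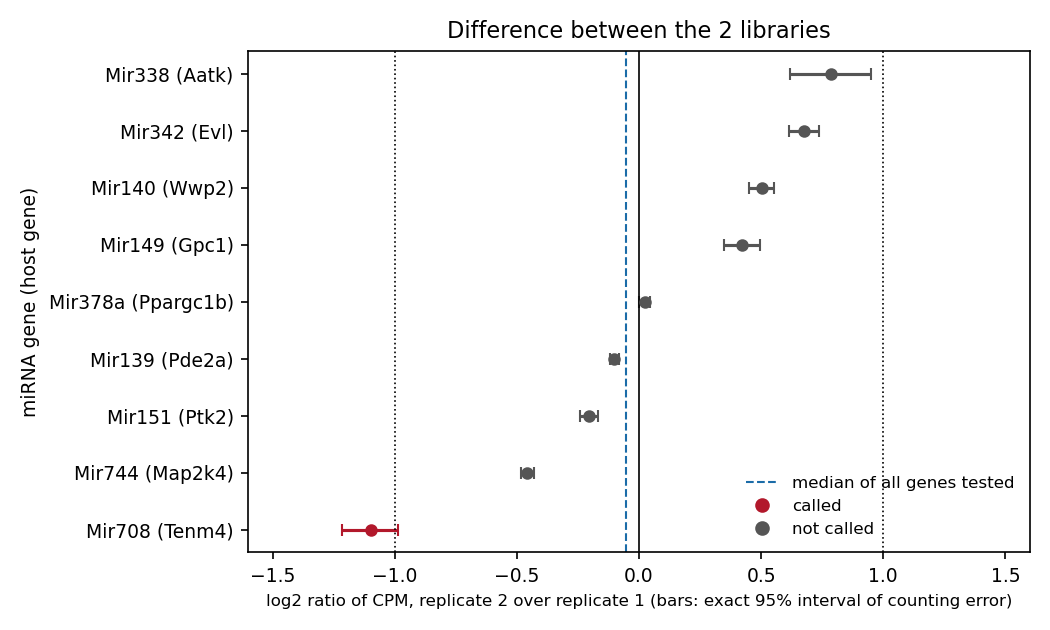
Log2 ratio of CPM in replicate 2 over replicate 1 for each member, with exact 95% intervals of counting error. Dotted lines mark the size threshold of 1, the dashed line the median of all 404 tested genes, and Mir708 at -1.10 (red) is the 1 member beyond the threshold. With TMM scaling Mir378a falls below 0.

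The level of Mir708 carries a limit of its own. Its precursor shares a run of 23 bases with Gm23134, a predicted miRNA gene in Blcap at chromosome 2, 157562361 to 157562447, and that run holds 22 of the 23 bases of miR-708-5p. Reads that align to several loci were set aside in the deposited tables, and Gm23134 kept 1 and 0 counts, so the level of Mir708 is uncertain. Mir378a shares 20 bases with Mir378c, which had 46 and 31 counts, and its level is also taken as uncertain. Whether that run covers a mature strand was not tested. The other 7 members shared at most 17 bases with any precursor at another locus.

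Marker lists of other cell types also gave unequal sums in the libraries, in both directions, with replicate 1 first in each pair of values. Mir122 of hepatocytes was at 1299 and 20602 CPM. The red blood cell list (Mir451a, Mir144 and Mir486, 3 of 3 detected) was at 7248 and 595 CPM in sum. Mir451a carried most of that sum, with 6842 and 491 CPM, and Mir486 had 12.4 and 19.6 CPM, higher in replicate 2 but not called. The striated muscle list was at 1141 and 2696 CPM with 3 of 8 genes detected and Mir133a-2 at 0, and the leukocyte list at 739.8 and 1269 CPM with 3 of 3 detected. The neuron list had 1 of 7 genes detected, with Mir124a-2 and Mir124a-3 at 0, and summed to 978 and 683 CPM. Mir137 carried nearly all of that sum, with 977 and 678 CPM. In the striated muscle list Mir206 did so, with 1130 and 2646 CPM. Reads that align to several loci were set aside in the deposited tables. Low counts of genes with several copies, such as Mir124a-2 and Mir133a-2, therefore do not show absence. The epithelium list was at 1007 and 755 CPM with 4 of 4 genes detected. In it Mir200b (272 and 32.0 CPM) and Mir200c (157.5 and 65.8 CPM) were called lower in replicate 2, as Mir708 was, whereas Mir203 (533 and 594 CPM) and Mir205 (44.2 and 63.4 CPM) had higher values there and were not called. The endothelium marker Mir126a was at 65222 and 83391 CPM, and the smooth muscle and stroma list at 42282 and 38444.5 CPM with 2 of 2 detected. The brown fat list was at 67.9 and 48.0 CPM with 2 of 2 detected. In it Mir193b was at 64.6 and 42.1 CPM, but Mir365-1 at 3.28 and 5.93 CPM on 13 and 10 counts. Of the leukocyte list, Mir223 (187 and 521 CPM) was called higher in replicate 2. Mir142 (421 and 617 CPM) and Mir150 (132.5 and 131.0 CPM) were not called. The part of these lists in the values of the members was not tested.

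The seed shared by miR-708-5p and miR-28a-5p gave a pair of hosted genes to set side by side. The strands have the same first 8 bases and match at 16 of 22 positions compared from the 5′ end. Mir28a lies in the Lpp gene at chromosome 16, 24827855 to 24827940, with 2971 and 2156 CPM. Its log2 ratio of -0.46 was toward replicate 1, as that of Mir708 was, and it was not called. Mir28a was 3.14 times Mir708 in replicate 1 and 4.87 times in replicate 2. Together they held 3919 and 2598 CPM, of which Mir28a was the larger part in both libraries. These levels count both strands of each hairpin, and that of Mir708 is uncertain because of the run shared with Gm23134. They therefore do not measure the amount of the shared seed. Whether the log2 ratios of Mir28a and Mir708 differ was not tested.

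Reads on the other strand were rare at the members. At Mir139, Mir378a, Mir744, Mir151, Mir140, Mir342 and Mir149 the opposite strand had 0 counts in both libraries, which for Mir139 allows up to 0.00407% and 0.0103% of its sense counts. Mir338 had 6 and 2 opposite-strand counts, which are also the counts of its partner Mir3065, and Mir708 had 14 and 7. In the either-strand column of the deposited tables Mir378a and Mir338 had 0 counts, against 51421 and 698 on the sense strand in replicate 1. Both are overlapped by a miRNA gene on the other strand. That column therefore gives no level for these members.

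Set against the annotation, 969 of the 2202 miRNA genes lay inside a protein-coding gene on the same strand. Of these, 150 were detected (10 counts or more in each library). The 969 genes together held 44.5% ± 1.13 of the counts (SD, n = 2). The members ranked from 8 (Mir139) to 61 (Mir338) among these hosted genes by mean level. As the members were chosen with their levels known, these ranks are a description only. Genes that met the strict rule for a single host numbered 491. In that set 71 were detected, and 17 of 95 tested were called, 10 higher and 7 lower in replicate 2. This was 17.9%, beside the 18.3% of all genes. Their median log2 ratio was 0.031 and the median size of the ratio 0.46.

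Within the strict set, Mir744 ranked 4, Mir151 ranked 6, Mir342 ranked 12 and Mir149 ranked 16 by mean level. The highest genes of that set that are not members were Mirlet7g in Wdr82 with 68394 ± 3907 CPM (SD, n = 2), Mir26b in Ctdsp1 with 33709 ± 12610.3 CPM and Mir335 in the imprinted gene Mest with 25930.0 ± 4383 CPM. They were followed by Mir652 in Tmem164 with 8284 ± 1707 CPM and Mir28a with 2563 ± 577 CPM. Mir744 thus lay between Mir335 and Mir652, and Mir151 between Mir652 and Mir28a.

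**Figure D4:**
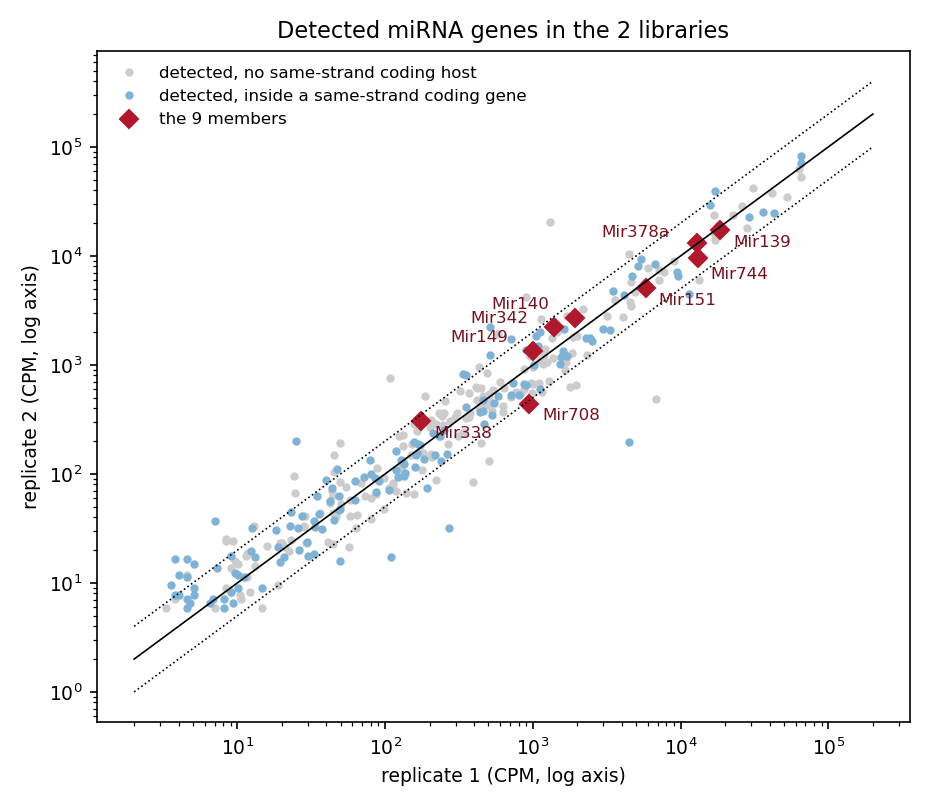
CPM in replicate 1 (horizontal) and replicate 2 (vertical) on log axes for the 340 detected miRNA genes, with genes inside a same-strand coding gene in blue and the 9 members as red diamonds. The solid line marks equal levels and the dotted lines a ratio of 2; Mir708 lies just under the lower dotted line and the other 8 members between the dotted lines.

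The genes with the most similar pair of levels were found by distance in log2(CPM + 0.5) over the 2 libraries. For Mir139 this was Mirlet7b, with 18019 and 18895 CPM and a distance of 0.132. For Mir140, the middle member, it was Mir674, with 1709 and 2798 CPM and a distance of 0.173. For Mir338 it was Mir493, with 158 and 287.5 CPM and a distance of 0.175. None of these 3 genes lies in a same-strand protein-coding gene. Over 2 libraries such a likeness describes level only.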

How the data were processed

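Small RNA reads under 30 nucleotides were counted per miRNA gene in 2 adrenal libraries. The deposited tables hold whole-number read counts, 1 table per library, made on mm10 with annotation release M21 per the deposited file lists. For the aligner, trimming and read filters, the method was not given in the sources used here. The tables have 3 count columns, and the strand-specific column with the larger total was read as the sense strand. The 4 summary rows (66.3% of reads in replicate 1 and 74.3% in replicate 2) were left out of totals. All 2202 gene identifiers matched GENCODE M21.

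CPM, exact Clopper-Pearson intervals and the exact binomial test with Benjamini-Hochberg adjustment over all 404 genes that reached 10 counts in 1 library or both were computed in Python 3.11.15 with scipy 1.17.1. The test was also run on simulated counts that held counting error only. That check says nothing about spread between animals. No quasi-likelihood fit was possible with 1 group. Intervals, and the limit of 3 counts that a count of 0 allows, cover counting error only, as reads are not independent molecules. Scaling alternatives used edgeR 4.0.16 (TMM) and DESeq2 1.42.0 (size factors) in R 4.3.3. Hairpins were folded with RNAfold 2.7.2. Runs shared between precursors were searched on both strands in the GENCODE M21 transcripts, and 20 bases or more were taken as uncertain.

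The members, lists and thresholds were chosen with earlier results of these data known. Named genes besides the members were up to 3 genes per shared seed by mean level, with ties at 0 kept, miRNA genes in a member's host or opposite a member, the 5 highest single-host intronic genes, and the most similar gene of the highest, middle and lowest member. Genes that share a long run with a member and cell type markers were also named. Alternatives were the scaling, strand column, denominator, count filter, added CPM, size threshold, detection rule, exon rule and each library left out.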

Additional observations from a re-analysis of the deposited data

Results flagged for a closer look

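Reads on the strand opposite to Mir708 stood above the 3 counts that a count of 0 allows in both libraries, with 14 counts in replicate 1 and 7 in replicate 2, although no miRNA gene is annotated there. They equal 0.373% of the sense-strand counts of Mir708 in replicate 1 (95% exact interval 0.204 to 0.625%) and 0.938% in replicate 2 (0.378 to 1.92%). Control samples were not part of the series.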

How the results depend on the processing

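With 1 group of 2 libraries, no difference between animals has a replicate check, and levels near 10 counts would not be resolved, though every member had at least 512 counts. The members' summed share of 5.41% was 4.65% in the either-strand column, which drops Mir378a and Mir338, and 1.61% of all reads. The members called different numbered 1 under TMM and DESeq2 scaling, in the either-strand column (7 members tested), without the count filter and with CPM + 5, and 3 at a log2 ratio over 0.58, where Mir342 and Mir338 joined Mir708. At that threshold 132 of all genes were called in place of 74. The log2 ratio of Mir378a changed sign, to -0.083 under TMM and -0.084 under DESeq2 scaling, and no other member's did under these alternatives. Single-host intronic genes detected were 157 where 1 count per library sufficed, against 71. Of the 95 tested, 28 were called at a log2 ratio over 0.58 and 12 with CPM + 5, against 17. Of all 404 genes tested, 132 and 57 were called at these settings, against 74. Leaving out a library gave a share of 5.22 to 5.60%, which cannot leave the spread of 2 values and shows nothing about stability.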
